A study of Homo sapiens with 9 samples.

Results

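Among the 62700 genes counted in 293T cells that received an empty vector or 1 of 2 CIC fusions, 178 genes were higher with CIC::NUTM1 than with both other plasmids. A gene was included when its mean over the 3 CIC::NUTM1 libraries was at least 1 CPM (counts scaled to a library total of 1000000), that mean was at least 2 times the mean of CIC::DUX4 and of empty vector, and its lowest CIC::NUTM1 library lay above all 6 other libraries, which alone held for 6.38% of tested genes. Some genes were left out by name whatever their values: the fused genes, several immediate early genes and families such as HOX, COL and KRT, and 13 of these met the numerical conditions. The measured values of all 3 groups therefore chose these genes, so their levels with CIC::NUTM1 are given as a description and without a test. SHOX, SPP1 and TAC1 are the 3 genes used to mark the set, and all 3 met the conditions.

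293T is an established line of human embryonic kidney cells that is easy to transfect. PolyA-selected RNA was sequenced from 3 libraries in each of 3 groups: plasmid without insert, HA-CIC(ex20)::NUTM1(ex6) and HA-CIC::DUX4, where HA is an epitope tag. All cells also received the transfection reagent, 300000 cells were transfected per condition, replicates came from separate days per the labels' protocols, and RNA was taken after about 48 hours. Expression was transient from plasmids in a line that does not come from a tumour with either fusion. The transcripts of the fused genes were not analysed here, so the plasmid in each library was not checked from its own counts.

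CIC (capicua) is a transcriptional repressor that binds short DNA octamers through its HMG box and is relieved by ERK signalling. In sarcomas its DNA-binding portion is found joined to the C-terminal part of DUX4 or of NUTM1, each of which can recruit the acetyltransferases p300 and CBP, and the fusions act as activators. SHOX is a homeobox factor of the pseudoautosomal region that is needed for limb growth, SPP1 encodes the secreted matrix phosphoprotein osteopontin, and TAC1 encodes the precursor of the neuropeptides substance P and neurokinin A.

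Library totals lay between 16970771 and 33655445 counts. All 8 genes listed for 293T (VIM, NEFL, NEFM, INA, KRT8, KRT18, PAX2, LHX1) had at least 1 CPM in each group. The 4 leukocyte, 3 endothelial and 3 erythroid genes summed to at most 1.58 CPM in any library, and HBB had 0 counts throughout. The 4 fibroblast genes summed to between 32.3 and 38.9 CPM over all libraries, most of it from COL1A1. CIC::NUTM1 replicate 2 stood apart for the 178 genes. Their median log2 ratio to the group mean was -0.30 in this library, 0.19 in replicate 1 and 0.05 in replicate 3, while the median over all 17576 tested genes was 0.02, -0.01 and -0.01. Replicate 2 was the highest of the 3 CIC::NUTM1 libraries for 11 of the 178 genes, replicate 1 for 107 and replicate 3 for 60. Other genes called higher with CIC::NUTM1 than with empty vector showed the same: replicate 2 was highest for 6.18% of the 178 genes, for 6.98% of these 1777 and for 8.77% of 810 genes higher with both fusions, against 36.4% of all tested genes. The medians of the 1777 were -0.11, 0.05 and 0.06 in replicates 2, 1 and 3. CIC::DUX4 replicate 1 was the highest of its group for 50.6% of the 178 genes and 81% of the 810, against 36% of all tested genes. The share of transfected cells is not given in the sources used here, and its part in these differences was not tested. In bulk RNA, a higher level in each cell and a larger share of cells with the transcript cannot be told apart.

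**Figure D1:**
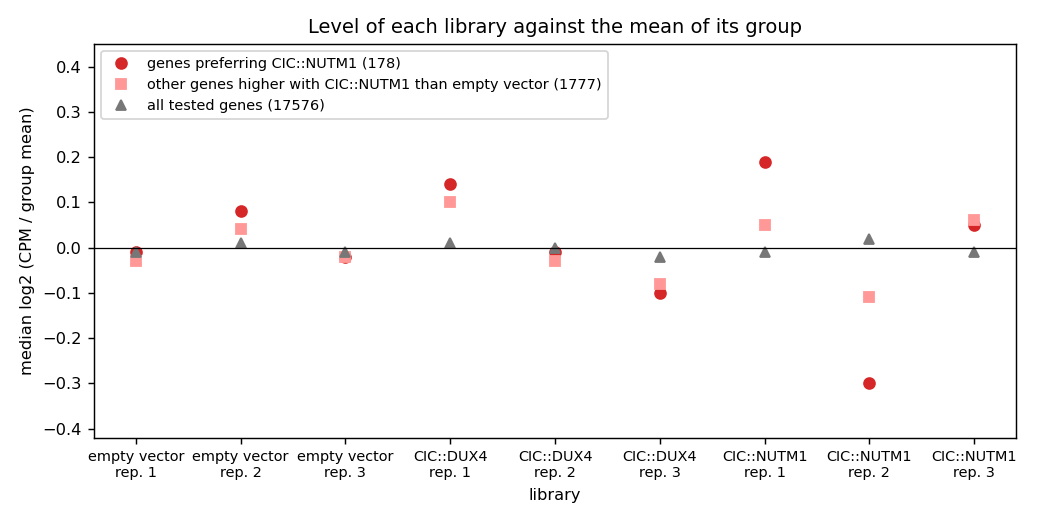
Median log2 ratio of each library's CPM to its group mean (vertical axis) for the 9 libraries (horizontal axis), over the 178 genes, 1777 other genes higher with CIC::NUTM1 than with empty vector, and all 17576 tested genes. The 178 genes lie at 0.19, -0.30 and 0.05 in the 3 CIC::NUTM1 libraries, while all tested genes stay within 0.02 of 0.

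The DNA before the 3 marker genes is shown because CIC is known to bind octamers near its targets, so that the letters before these genes can be read beside their levels. Sequences are from RefSeq, GRCh38.p14, 5′ to 3′ on the strand of the gene, and stop before the gene start of GENCODE 29. In these 3 sequences capitals would mark any of the motifs named below, and none of them was found in the 300-base windows of these 3 genes, so all letters are lower case.
SHOX, chrX:624094-624343, plus strand: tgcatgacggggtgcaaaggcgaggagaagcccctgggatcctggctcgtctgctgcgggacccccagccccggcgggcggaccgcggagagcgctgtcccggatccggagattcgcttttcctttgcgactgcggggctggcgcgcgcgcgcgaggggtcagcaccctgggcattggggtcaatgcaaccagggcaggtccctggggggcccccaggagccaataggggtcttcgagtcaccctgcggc
SPP1, chr4:87975464-87975649, plus strand: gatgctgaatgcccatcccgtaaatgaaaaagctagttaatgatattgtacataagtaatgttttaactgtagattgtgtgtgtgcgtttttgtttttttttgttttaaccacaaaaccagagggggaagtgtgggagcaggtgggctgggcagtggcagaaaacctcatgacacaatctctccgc
TAC1, chr7:97731836-97731907, plus strand: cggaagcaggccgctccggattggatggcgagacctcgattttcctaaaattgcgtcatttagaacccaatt

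Windows of 250 bases before to 50 bases after a RefSeq start were found for 110 of the 178 genes (61.8%), which is too few for a comparison of the whole set with other genes, and that comparison is void. The CIC octamers TGAATGAA, TGAATGGA, TCAATGAA and TCAATGGA, searched on both strands, were present in the windows of 4 of the 110 genes (3.64%), in 2.53% of the windows of tested genes outside the set and in 3.86% of all 27195 windows. These 4 are CLDN1 (claudin 1, a tight junction protein), IPCEF1, EPHA2 (an ephrin receptor tyrosine kinase) and NUAK2 (a kinase related to AMPK). They are shown as the genes, among the 110, in which these letters were found, with only the octamer in capitals, so that letters of other motifs stay in lower case.
CLDN1, chr3:190322644-190322696, minus strand: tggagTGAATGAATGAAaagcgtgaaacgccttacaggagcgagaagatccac
IPCEF1, chr6:154356930-154357017, minus strand: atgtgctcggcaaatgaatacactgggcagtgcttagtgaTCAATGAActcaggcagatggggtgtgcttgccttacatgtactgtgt
EPHA2, chr1:16156088-16156143, minus strand: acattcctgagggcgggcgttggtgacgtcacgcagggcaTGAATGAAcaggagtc
NUAK2, chr1:205321877-205321964, minus strand: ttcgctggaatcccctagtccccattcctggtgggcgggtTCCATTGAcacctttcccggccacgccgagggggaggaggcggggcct

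The capitals in CLDN1 hold TGAATGAA in overlapping copies, and TCCATTGA in NUAK2 is TCAATGGA read on the other strand. The other motifs, also searched on both strands, are given with the share of tested genes outside the set and of all windows as a description only. AP-1 (TGANTCA) was in 10 of the 110 windows (9.09%, 4.36% and 7.73%) and CRE (TGACGTCA) in 4 (3.64%, 3.25% and 1.98%). ETS (ACCGGAAGT) was in 0 (1.97% and 1.08%), TEAD (GGAATG) in 12 (10.9%, 10.7% and 14%) and a TATA box (TATAAA) in 16 (14.5%, 5.81% and 12%). TGACGTCA does not contain TGANTCA, so a CRE match is not also an AP-1 match. A match describes letters and not a bound site, and a missing match says only that these letters are not in this window.

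The 178 genes exceeded the larger of the 2 other means by a median of 2.56 times, with a range from 2.001 to 92.4. The ratio was at least 3 for 61 genes, at least 5 for 31 and at least 10 for 6. Just inside the limit of 2 lay TTC29 (2.001), ENSG00000205740 (2.001) and ENSG00000233558 (2.01), and just outside it ACSBG1 (1.984), ENSG00000237669 (1.982) and MAMLD1 (1.981). Levels with CIC::NUTM1 were mostly low: the median of the means was 2.96 CPM, 67 genes lay under 2 CPM, 59 at 10 CPM or more and 22 at 50 CPM or more. The lowest CIC::NUTM1 library exceeded the highest other library by a median of 1.61 times, by at least 2 times for 45 genes and by under 1.1 times for 13.

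With empty vector, 111 of the 178 genes had a mean under 1 CPM and 19 had 0 counts in all 3 libraries. With CIC::DUX4, no gene had 0 counts in all 3 libraries, and P2RY8 alone had no more than 3 counts in each. GENCODE 29 held 172 of the genes, and 151 of them (84.8% of 178) were protein coding, against 78.7% of tested genes. Another 7 were lincRNAs and 6 were antisense transcripts. Of the 172, 94 overlapped a gene on the other strand and 54 a gene on the same strand, and reads of such pairs may not be separable because the use of strand in counting is not given in the sources used here.

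SHOX (ENSG00000185960, GRCh38 chrX:624344-659411) stood at 11.2, 4.69 and 8.12 CPM with CIC::NUTM1, a mean of 7.99 ± 3.24 (SD, n = 3). It had 2, 1 and 0 counts with empty vector, and 0.386, 0.389 and 0.471 CPM with CIC::DUX4. The lowest CIC::NUTM1 library, replicate 2, was still far above every other library. The ratio of means to CIC::DUX4 was 19.2, and the pooled CPM ratio to empty vector was 189.9, with an exact 95% interval for counting error of 64.6 to 924. SHOX has identical X and Y copies in the reference, and how counting treated them is not given in the sources used here.

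SPP1 (ENSG00000118785, chr4:87975650-87983426) stood at 36.8, 21.9 and 35.7 CPM with CIC::NUTM1 (31.5 ± 8.29, SD, n = 3). With CIC::DUX4 it had 2.82, 1.95 and 2.18 CPM, and with empty vector 0.0578, 0.149 and 0.16 CPM. The 3 groups formed separate steps without overlap, and the mean with CIC::NUTM1 was 13.6 times that with CIC::DUX4. TAC1 (ENSG00000006128, chr7:97731908-97740472) had 6.42, 4.35 and 4.79 CPM with CIC::NUTM1 (5.19 ± 1.09, SD, n = 3), against 0.463, 0.389 and 0.707 CPM with CIC::DUX4 and 0.752, 0.475 and 0.882 CPM with empty vector. Its libraries of empty vector and CIC::DUX4 overlapped, and the ratio of means was 9.98 to CIC::DUX4 and 7.38 to empty vector. SPP1 thus had an intermediate level with CIC::DUX4 and TAC1 did not.

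Whether these genes also responded to CIC::DUX4 can be tested, because the conditions did not use the order of CIC::DUX4 and empty vector, although they capped both. Of the 176 genes that passed the abundance filter, 64 were higher with CIC::DUX4 than with empty vector, none was lower and 112 were not called (edgeR quasi-likelihood test, Benjamini-Hochberg adjusted p under 0.05 over all 17576 tested genes). Over all tested genes, 6.96% were called higher and 1.27% lower in this comparison, against 36.4% of the 176 higher. At an unadjusted p under 0.05 edgeR had 94 of the 176 higher and 0 lower, against 12.6% and 6.57% of all tested genes. DESeq2 called 69 higher and 0 lower, where it called 7.42% of all tested genes higher. HTR2B and ENSG00000289162 did not pass the filter. When the filter and the fit used only these 2 groups, 126 of the 178 genes were tested, 48 were higher and 0 lower, against 7.05% higher of all genes tested there. The rest of the 176 were thus tested only through their CIC::NUTM1 level, and both the called and the not called genes include some of them. The 3 CIC::DUX4 libraries all lay above the 3 empty vector libraries for 79 of the 176 tested genes and all below for 1, where 14.7% and 10.8% of tested genes did so.

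The share called higher differed with the level in empty vector, so the counts are also given by level. Of the 111 genes under 1 CPM with empty vector, 42 were called higher with CIC::DUX4, against 14.3% of all 3105 tested genes in that range. From 1 to 10 CPM it was 13 of 43, against 5.85% of 4396, and at 10 CPM or more 9 of 24, against 5.19% of 10075. The 111 include HTR2B and ENSG00000289162, which were not tested, and genes such as SHOX that were tested only through their CIC::NUTM1 level. Genes with 0 counts with empty vector could not be called lower. The median log2 difference between CIC::DUX4 and empty vector was 0.82 over the 176 genes and 0 over all tested genes, and 150 of the 176 fitted differences were above 0. For 112 of the genes the level with CIC::DUX4 was therefore not distinguished from empty vector, which does not show that they did not respond.

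**Figure D2:**
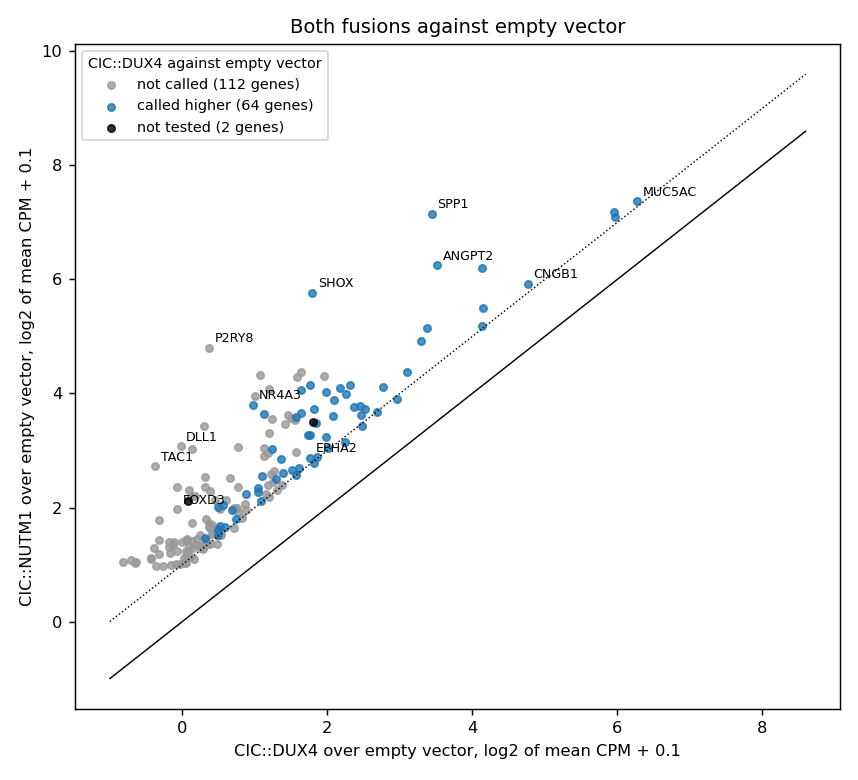
Log2 ratio of mean CPM + 0.1 to empty vector for CIC::DUX4 (horizontal axis) and CIC::NUTM1 (vertical axis), 1 point per gene, with the solid line at equal ratios and the dotted line at the 2-fold limit. All 178 genes lie near or above the dotted line because they were chosen so. The 64 genes called higher with CIC::DUX4 (blue) reach as far right as MUC5AC. Some of the 64, such as SPP1, SHOX and ANGPT2, lie well above the dotted line. TAC1, DLL1 and FOXD3 lie near 0 on the horizontal axis.

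Transcription factors and chromatin proteins were 29 of the 178 genes, and 22 of them already had at least 1 CPM with empty vector. Their median CPM was 6.81 with empty vector, 11.2 with CIC::DUX4 and 34.6 with CIC::NUTM1. With CIC::DUX4 against empty vector 9 of the 29 were called higher, against 6.96% of all tested genes, and 20 were not called. The counts by role, here and below, can include genes tested only through their CIC::NUTM1 level. NR4A3, an orphan nuclear receptor of the immediate early class, had 64.1, 36.8 and 54.8 CPM with CIC::NUTM1, 7.02, 7.2 and 7.48 with CIC::DUX4 and 3.06, 3.6 and 4.21 CPM with empty vector. The groups did not overlap, and its rise with CIC::DUX4 was 0.98 ± 0.20 (SE) on the log2 scale (edgeR adjusted p = 0.00219).

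PAX5, the B lineage paired-box factor, followed the same order with 12.1, 6.73 and 10.7 CPM with CIC::NUTM1 and 1.58, 2.14 and 1.65 with CIC::DUX4. Empty vector gave 0.636, 0.178 and 0.561 CPM, and the rise with CIC::DUX4 was 2.06 ± 0.39 on the log2 scale (edgeR adjusted p = 0.000664). SHOX itself was called higher with CIC::DUX4 (edgeR adjusted p = 0.0062), with a pooled CPM ratio of 10.4 (exact 95% interval 3.18 to 53.5). That call rested on 3 counts in all empty vector libraries together and was lost without empty vector replicate 2 (adjusted p = 0.0507, range over 14 alternatives 0.000359 to 0.0507). SHOX did not pass the filter when CIC::DUX4 and empty vector were fitted alone, so it was tested only through its CIC::NUTM1 level.

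FOXD3, a forkhead factor of neural crest and pluripotent cells, had 59.9, 34.4 and 45.4 CPM with CIC::NUTM1, 11.1, 10.3 and 12.3 with CIC::DUX4 and 11, 12.2 and 12.3 CPM with empty vector. Its CIC::DUX4 and empty vector libraries overlapped, with a log2 difference of -0.09 ± 0.17 (edgeR adjusted p = 0.844). SHOX2, the autosomal paralog of SHOX, had 28.9, 19.2 and 24 CPM with CIC::NUTM1, against 8.87, 8.46 and 10 CPM with CIC::DUX4 and 8.56, 9 and 8.94 CPM with empty vector. The difference between CIC::DUX4 and empty vector was 0.04 ± 0.16 (adjusted p = 0.935), so that SHOX and SHOX2 differed in baseline and in their CIC::DUX4 level.

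TFAP2A, an AP-2 factor of neural crest and surface ectoderm, had 209, 146 and 183 CPM with CIC::NUTM1, with means of 63.4 ± 3.85 CPM (SD, n = 3) with CIC::DUX4 and 72 ± 6.87 CPM with empty vector. FOXB1 and SKIDA1 had log2 differences between CIC::DUX4 and empty vector of 0.39 ± 0.19 and 0.17 ± 0.14, neither called (edgeR adjusted p = 0.302 and 0.595). SOX2, the pluripotency and neural progenitor factor, had 127, 81.8 and 99.7 CPM with CIC::NUTM1 and a log2 difference of 0.38 ± 0.17 between CIC::DUX4 and empty vector. It was not called (edgeR adjusted p = 0.247), but it was in 4 of 16 alternatives, among them the replicate block, and adjusted p ran from 0.00338 to 0.569 over all 16.

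MECOM, a zinc finger factor of stem cells, was not called with CIC::DUX4 (log2 difference 0.31 ± 0.11, edgeR adjusted p = 0.0926). It was called in 3 of 16 alternatives, and adjusted p ran from 0.027 to 0.378. ZNF217, a zinc finger factor, rose by 0.32 ± 0.10 (adjusted p = 0.0391) and lost its call in 5 of 16 alternatives, without CIC::DUX4 replicate 1 or 2 or any of the empty vector libraries, with adjusted p from 0.0221 to 0.231. TSC22D2 rose with CIC::DUX4 by 0.59 ± 0.10 (edgeR adjusted p = 2e-04).

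**Figure D3:**
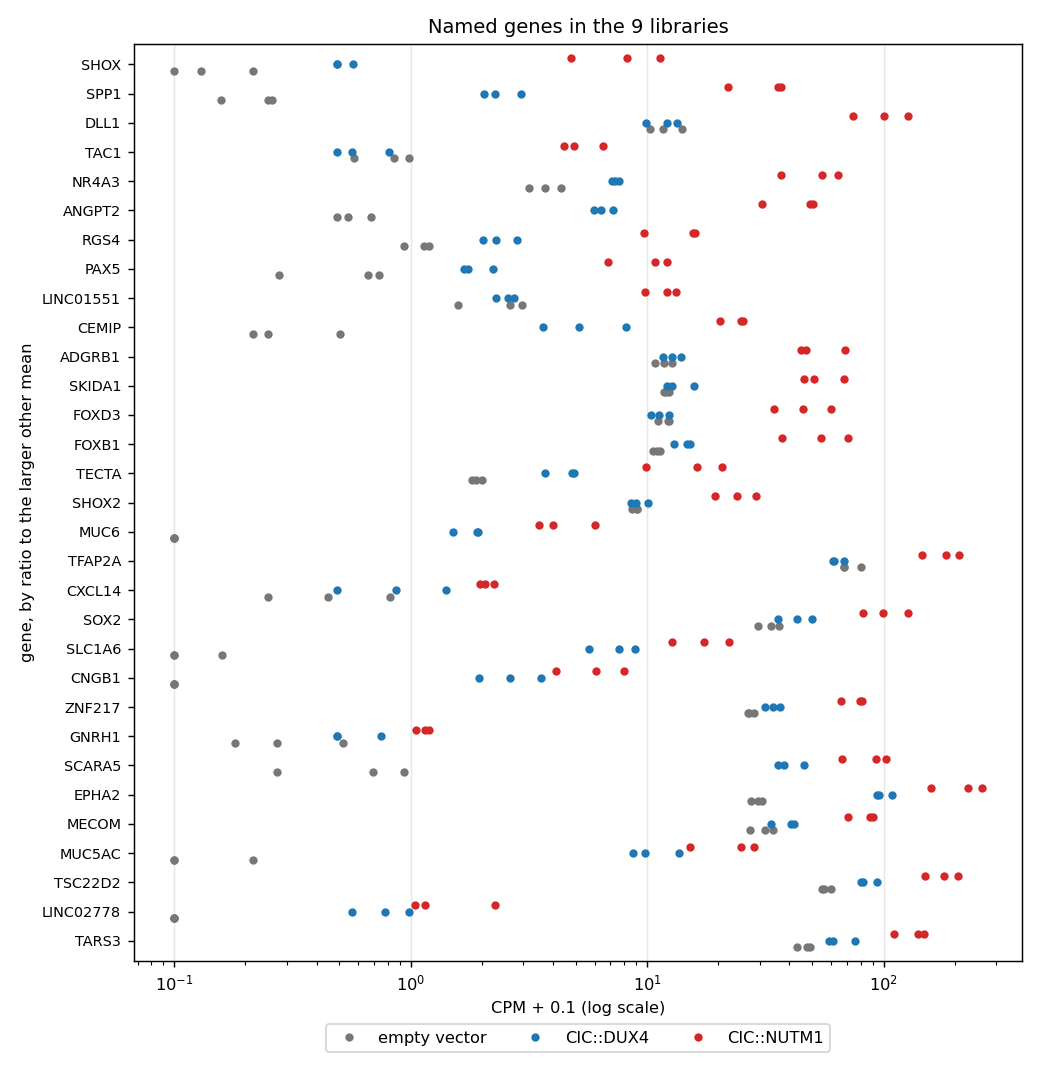
CPM + 0.1 on a log scale (horizontal axis) of the named genes (vertical axis, ordered by their ratio to the larger other mean), 1 point per library, for empty vector, CIC::DUX4 and CIC::NUTM1. The CIC::NUTM1 points lie to the right of all others by the conditions of choice, and the distance between the gray and blue points runs from overlap in TAC1, DLL1 and FOXD3 to clear separation in SCARA5 (ratio of means 74.4) and MUC5AC (pooled ratio 417).

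Ligands, hormones, mucins and other secreted or matrix proteins were another 29 genes. With CIC::DUX4, 16 of the 29 were called higher, against 6.96% of all tested genes. Only 7 had at least 1 CPM with empty vector, and the median CPM was 0.441 with empty vector, 1.68 with CIC::DUX4 and 4.42 with CIC::NUTM1. SPP1 rose with CIC::DUX4 by 4.10 ± 0.41 on the log2 scale (edgeR adjusted p = 8.96e-08). TAC1 had a log2 difference of -0.43 ± 0.42 and was not called (edgeR adjusted p = 0.645).

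DLL1, a ligand of Notch receptors, had 127, 74.3 and 100.2 CPM with CIC::NUTM1, a mean of 101 ± 26.6 (SD, n = 3). It had 12, 13.3 and 9.78 CPM with CIC::DUX4 and 11.6, 13.9 and 10.2 CPM with empty vector. These last 2 groups overlapped, with a log2 difference of -0.03 ± 0.22 (edgeR adjusted p = 0.968), and the mean with CIC::NUTM1 was 8.62 times that with CIC::DUX4. JAG1, another Notch ligand that was named after its values were seen, had 61.3, 47.3 and 64.3 CPM with CIC::NUTM1 and 23.4, 19.1 and 18.9 with CIC::DUX4. Its empty vector libraries had 12.5, 14.9 and 14.4 CPM, and it rose with CIC::DUX4 by 0.55 ± 0.13 (edgeR adjusted p = 0.00483).

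ANGPT2, the angiopoietin that antagonises TIE2 signalling, had 48.8, 30.6 and 50.3 CPM with CIC::NUTM1, 7.06, 5.84 and 6.3 with CIC::DUX4 and 0.578, 0.386 and 0.441 CPM with empty vector. The groups were well separated, and the rise with CIC::DUX4 was 3.82 ± 0.27 (edgeR adjusted p = 8.84e-10). CEMIP, which takes part in hyaluronan breakdown, had 24.9, 20.2 and 25.3 CPM with CIC::NUTM1 and 8.03, 5.06 and 3.54 with CIC::DUX4, and rose with CIC::DUX4 by 4.62 ± 0.38 (edgeR adjusted p = 3.02e-08). TECTA, a protein of the tectorial membrane of the inner ear, rose by 1.27 ± 0.26 (adjusted p = 0.00146). The chemokine CXCL14 and the releasing hormone precursor GNRH1 were near the lower level limit, with CIC::NUTM1 means of 2 ± 0.15 and 1.04 ± 0.0699 CPM (SD, n = 3), and were not called with CIC::DUX4 (edgeR adjusted p = 0.327 and 0.467). GNRH1 did not pass the filter when CIC::DUX4 and empty vector were fitted alone.

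Of 33 receptors, channels, transporters and adhesion proteins, 13 were called higher with CIC::DUX4, 19 were not called and 1, HTR2B, was not tested. Over all tested genes the share called higher was 6.96%. SCARA5, a scavenger receptor that binds ferritin, had 102, 66.7 and 92.5 CPM with CIC::NUTM1, 46.1, 35.8 and 37.8 with CIC::DUX4 and 0.173, 0.594 and 0.842 CPM with empty vector. Its ratio to CIC::DUX4 was 2.18, and it was high with both fusions: with CIC::DUX4 it rose by 6.10 ± 0.29 (edgeR adjusted p = 4.79e-08). CNGB1, a cyclic nucleotide-gated channel subunit, had 0 counts in the 3 empty vector libraries. It had 3.47, 1.85 and 2.53 CPM with CIC::DUX4, at least 68.2-fold higher than 3 counts over the empty vector group would give (edgeR adjusted p = 2.61e-08), and 7.88, 4.04 and 6 CPM with CIC::NUTM1.

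SLC1A6, a glutamate transporter, had 2 counts in the empty vector group and 8.76, 5.59 and 7.54 CPM with CIC::DUX4 (edgeR adjusted p = 5.8e-11), a pooled ratio of 281 (exact 95% interval 77.4 to 2328). Its CIC::NUTM1 libraries had 22.1, 12.6 and 17.3 CPM. EPHA2 had 261, 158 and 227 CPM with CIC::NUTM1, against 109, 95.2 and 93.6 CPM with CIC::DUX4 and 27.3, 30.6 and 29.5 CPM with empty vector. It rose with CIC::DUX4 by 1.76 ± 0.18 (edgeR adjusted p = 0.000229). ADGRB1, an adhesion G protein-coupled receptor, had 68.6, 44.8 and 47.1 CPM with CIC::NUTM1 and a log2 difference of 0.13 ± 0.15 between CIC::DUX4 and empty vector (edgeR adjusted p = 0.724).

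P2RY8, a G protein-coupled receptor of germinal centre B cells, had the largest ratio of the set and was named after its values were seen. It had 0 counts in the 3 empty vector libraries, 1, 1 and 0 counts with CIC::DUX4 and 56, 60 and 50 counts with CIC::NUTM1, which is 3.27, 2.27 and 2.52 CPM. The pooled ratio to CIC::DUX4 was 83.1 (exact 95% interval 22.6 to 692), and the level was at least 66.2-fold above that of 3 counts over the empty vector group. Both other groups were at or under that floor, so no ratio between them is given.

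Among 22 signalling and trafficking proteins inside the cell, 7 were called higher with CIC::DUX4 and 15 were not. RGS4, which speeds the turn-off of G protein alpha subunits, had 15.5, 9.56 and 15.9 CPM with CIC::NUTM1 and rose with CIC::DUX4 by 1.18 ± 0.28 (edgeR adjusted p = 0.00669), from 1.1, 1.04 and 0.842 CPM to 1.93, 2.19 and 2.71 CPM. Of 16 enzymes 6 were called higher, among them TARS3, a threonyl-tRNA synthetase, by 0.49 ± 0.11 (adjusted p = 0.00623). Of 9 cytoskeletal, muscle and cilium proteins 5 were called higher. The other 40 genes, with noncoding RNAs and unclassed proteins, had 8 called higher, 31 not called and 1 not tested. Over all tested genes 6.96% were called higher, and these counts by role can include genes tested only through their CIC::NUTM1 level.

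Both patterns were also seen among noncoding genes. LINC01551 had 12.1, 9.71 and 13.2 CPM with CIC::NUTM1 and a log2 difference of 0.08 ± 0.25 between CIC::DUX4 and empty vector (edgeR adjusted p = 0.916). LINC02778 had 0 counts with empty vector, 0.463, 0.681 and 0.884 CPM with CIC::DUX4, at least 16.3-fold higher than 3 counts over the group (edgeR adjusted p = 0.000259), and 1.05, 0.945 and 2.17 CPM with CIC::NUTM1.

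Some of the genes were neighbours. Within 100 kb of another of the genes lay 18 of the 172 placed (10.5%), against 424 of 16863 tested genes outside the set that had a member that near (2.51%), and within 1000 kb it was 48 (27.9%) against 14.3%. LINC00466 lay 5.77 kb from FOXD3, and LINC00461 26.1 kb from MEF2C. Chromosome 11 held the most, 19 genes, and 7 of these lay between MUC6 and IGF2 (GRCh38 chr11:1012821-2149603, 1137 kb, 53 genes in GENCODE 29, 21 of them tested). This interval and the next were chosen after the positions were seen.

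Within it, the gel-forming mucins MUC6, MUC2 and MUC5AC were all in the set and MUC5B was not. MUC5AC had 24.9, 15.1 and 28.3 CPM with CIC::NUTM1, 13.5, 9.73 and 8.66 with CIC::DUX4 and 2, 0 and 0 counts with empty vector. Its pooled ratio of CIC::DUX4 to empty vector was 417 (exact 95% interval 115 to 3454, edgeR adjusted p = 2.76e-08). MUC6 had 0 counts with empty vector and was at least 42.7-fold above 3 counts over the group with CIC::DUX4 (edgeR adjusted p = 1.50e-07). MUC2 had 46, 38 and 40 counts with CIC::NUTM1, 1, 6 and 6 with CIC::DUX4 and 0, 1 and 0 with empty vector, and was not called with CIC::DUX4 (edgeR adjusted p = 0.0553). Mucin genes share repeats, so reads may have been split among them.

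Other genes of the interval behaved differently. TNNT3, a muscle troponin that was not in the set, had 5.38 ± 0.695 CPM with CIC::DUX4 and 2.89 ± 0.666 with CIC::NUTM1 (SD, n = 3), and its difference between the fusions was not called (edgeR adjusted p = 0.126). TNNI2, another troponin that was in the set, had 59, 23 and 32 counts with CIC::NUTM1, 14, 2 and 0 with CIC::DUX4 and 0 with empty vector. H19 rose with CIC::DUX4 to 1.44 ± 0.459 CPM (edgeR adjusted p = 0.0215), and IGF2, the insulin-like growth factor in the same imprinted cluster, rose by 1.74 ± 0.41 on the log2 scale (adjusted p = 0.00602). CTSD, a lysosomal protease in between, had means of 54.4, 58.2 and 57.8 CPM with empty vector, CIC::DUX4 and CIC::NUTM1 and was not called in any comparison.

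SHOX and P2RY8 lay 803 kb apart in the pseudoautosomal region, with 13 genes from one to the other and 6 of them tested. ASMTL, next to P2RY8, went the other way between the fusions: it had 34.5 ± 3.73 CPM with empty vector, 218 ± 37.3 with CIC::DUX4 and 85.6 ± 19.7 with CIC::NUTM1 (SD, n = 3), a log2 difference of -1.31 between CIC::NUTM1 and CIC::DUX4 (edgeR adjusted p = 0.00767). SLC25A6, an adenine nucleotide translocase in the same stretch, had means of 595, 572 and 564 CPM in that order of groups and was not called.

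**Figure D4:**
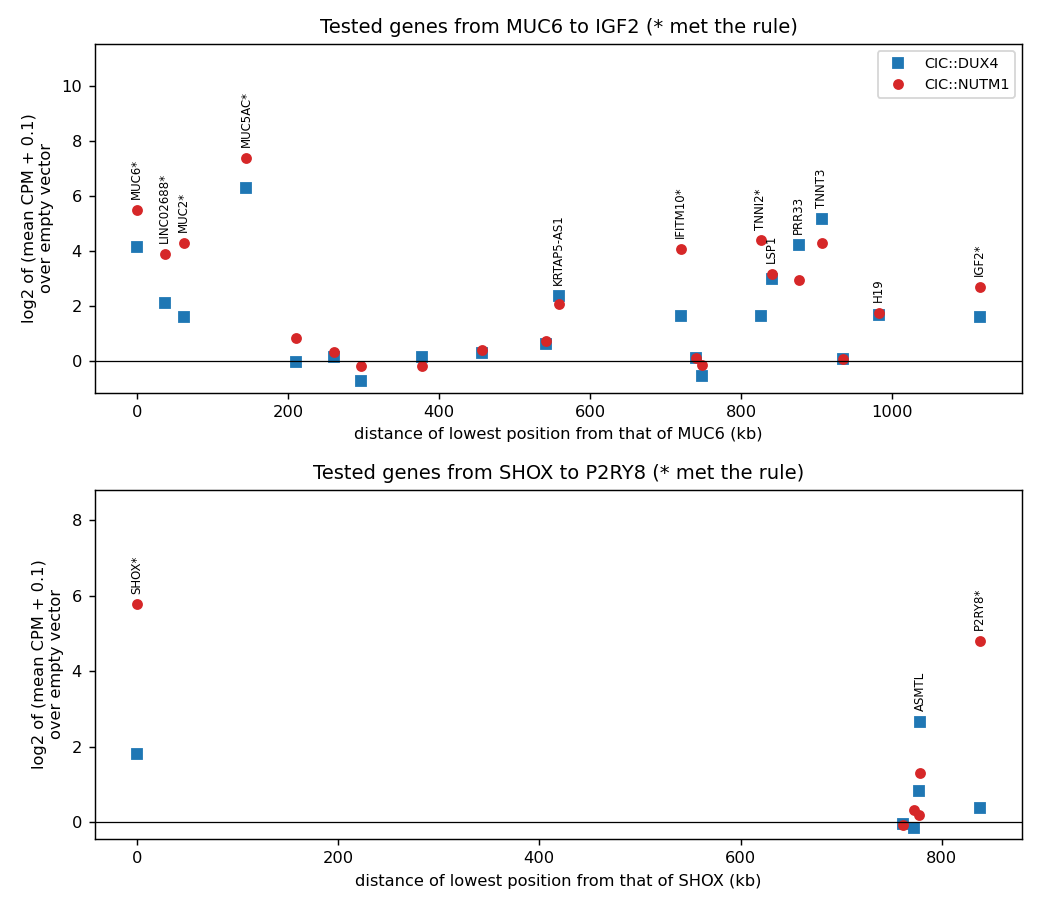
Log2 ratio of mean CPM + 0.1 to empty vector (vertical axis) for CIC::DUX4 and CIC::NUTM1 along the interval from MUC6 to IGF2 (top) and from SHOX to P2RY8 (bottom), by distance in kb from the first gene (horizontal axis), with names for genes past 1 in either group and an asterisk for genes of the set. The 7 starred genes of the top panel have CIC::NUTM1 above CIC::DUX4. TNNT3, PRR33 and KRTAP5-AS1 have it below, and none of these was called between the fusions. In the bottom panel ASMTL has it below (218 CPM with CIC::DUX4, 85.6 CPM with CIC::NUTM1).

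Genes related to the markers were counted outside the set, where the difference between the fusions can be tested, although membership of the set has removed the genes that rose most. Over 9 lists, 172 genes outside the set were tested, 30 were higher with CIC::NUTM1 than CIC::DUX4 and 4 were lower, against 4.97% higher and 1.64% lower of all tested genes. The lists were chosen with earlier results of these data known.

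Most of the higher ones were homeobox factors other than HOX. Of 52 tested, 18 (34.6%) were higher and 0 lower (edgeR), with 1 lower at an unadjusted p under 0.05 and 18 higher and 0 lower by DESeq2. Their median log2 difference was 0.22, against -0.01 over all tested genes. Without CIC::NUTM1 replicate 1 the counts were 11 and 1. ISL1, a LIM homeobox factor of motor neurons and heart progenitors, had 46.9, 42 and 52.8 CPM with CIC::NUTM1, 23.3, 22.1 and 22.6 with CIC::DUX4 and 26.7, 26.5 and 25.1 CPM with empty vector (log2 difference between the fusions 1.1 ± 0.10, edgeR adjusted p = 5.24e-08). DLX1, a forebrain and limb factor, had means of 59.7, 30.1 and 32.1 CPM in that order (1.03 ± 0.10, adjusted p = 9.22e-08).

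The 18 differences ran from 0.30 to 1.1. VAX1 and TLX3 were also higher with CIC::DUX4 than with empty vector, while EN2 and PITX1 were lower there, so that for these last 2 a fall with CIC::DUX4 entered the difference. EN2 had means of 195, 163 and 225 CPM with empty vector, CIC::DUX4 and CIC::NUTM1. PITX1 had 133, 113 and 135 CPM.

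**Figure D5:**
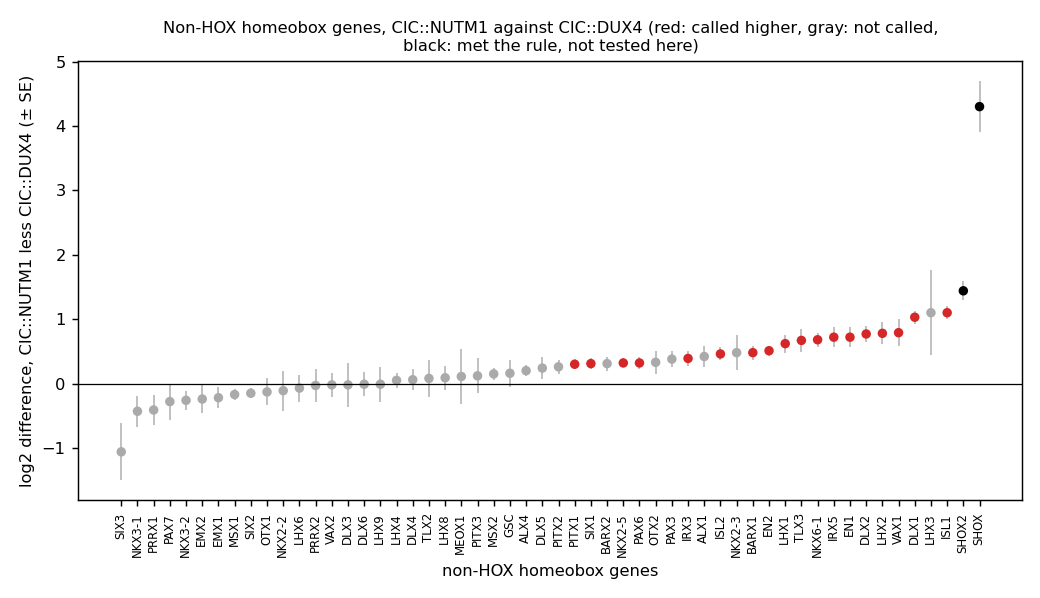
Log2 difference between CIC::NUTM1 and CIC::DUX4 with its standard error (vertical axis) for the tested non-HOX homeobox genes (horizontal axis), red where called higher, gray where not called and black for SHOX and SHOX2, which were chosen by this difference and are not tested. The 18 red points lie between 0.30 and 1.1.

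In the list of SHOX and growth plate cartilage genes, 2 of 8 tested outside the set were higher with CIC::NUTM1 by edgeR and by DESeq2, and 4 at an unadjusted p under 0.05. None was lower in any of these counts. SOX6, a chondrocyte SOX factor, differed by 0.67 ± 0.19 (edgeR adjusted p = 0.0316) and FGFR3, a growth factor receptor of the growth plate, by 0.39 ± 0.10 (adjusted p = 0.0287). Among CD44 and 8 integrins, which include receptors of SPP1, ITGB1 was higher, with means of 216 ± 9.41 CPM with CIC::NUTM1 and 163 ± 12.5 with CIC::DUX4 (SD, n = 3; 0.44 ± 0.07, edgeR adjusted p = 5.35e-05). None of the 9 was lower by edgeR, at an unadjusted p under 0.05 or by DESeq2. Of the tachykinins and their receptors only TAC1 passed the filter, and none of 23 other neuropeptide and hormone genes was called by edgeR in either direction. At an unadjusted p under 0.05 edgeR had 2 of these 23 higher and 1 lower, and DESeq2 called 1 higher and 1 lower.

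The output genes of the ERK pathway had 18 of 29 higher with CIC::DUX4 than with empty vector and 18 with CIC::NUTM1, where 6.96% and 11.5% of all tested genes were, and 3 higher with CIC::NUTM1 than CIC::DUX4: FOSL1 (0.89 ± 0.18, edgeR adjusted p = 0.00234), ETV1 (0.83 ± 0.21, adjusted p = 0.04) and CCND1 (0.67 ± 0.14, adjusted p = 0.0251). None of the 29 was lower by edgeR, with 1 lower at an unadjusted p under 0.05 and 1 by DESeq2. Of 24 TGF-beta and BMP genes 3 were higher and 2 lower. BMP7 had means of 215 ± 42.1 CPM with CIC::NUTM1 and 114 ± 2.04 with CIC::DUX4 (SD, n = 3; 0.96 ± 0.11, edgeR adjusted p = 5.88e-05), and INHBE, an activin subunit, had -2.60 ± 0.78 (adjusted p = 0.0422). INHBE was low, with 0.175, 0.227 and 0 CPM with CIC::NUTM1 and 1.66, 0.389 and 0.589 CPM with CIC::DUX4, so its call rests on few counts. Of 19 SRF and YAP targets 3 were higher and ANKRD1 was lower (-1.83 ± 0.27, edgeR adjusted p = 4.95e-05). Of 12 cytokines and chemokines none was higher by edgeR, at an unadjusted p under 0.05 or by DESeq2, and CCL5 was lower, with 0.0893 ± 0.0792 CPM with CIC::NUTM1 and 1.13 ± 0.401 with CIC::DUX4 (SD, n = 3; edgeR adjusted p = 0.00767).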

How the data were processed

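PolyA RNA of 9 libraries in 3 groups was analysed from the counts per Ensembl gene that the authors deposited, which are raw whole numbers. A second deposited table holds log2 CPM by symbol, made by the authors, and was used only to check columns: 15713 of its 15811 genes matched. The submitters' processing notes name GRCh38, STAR 2.7.10b, R 4.2.2 and edgeR 3.40.2 without their roles. The counting program, the annotation and the use of strand are not given in the sources used here. Symbols matched 62622 of 62700 genes, and positions are from GENCODE 29. Groups came from the sample labels.

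CPM was the count over the library total, times 1000000. Members were found by the conditions given above. The members and all gene lists were chosen with earlier results of these data known, and roles were assigned after values were seen. Differential expression was tested in R 4.3.3 with edgeR 4.0.16. After filterByExpr (17576 genes left) and TMM scaling, all 9 libraries entered one quasi-likelihood fit (robust) with a coefficient for each group. Calls are at a Benjamini-Hochberg adjusted p under 0.05 over all tested genes. The SE of a log2 change is its size over the root of the F statistic. Where a group had 0 counts, the ratio is against 3 counts over the group, and with 1 to 3 counts it is the pooled ratio with an exact 95% interval. Both cover only counting error and leave out the spread between replicates. PCR copies were not marked by molecular identifiers, so the counting error itself may be larger. Replicates were separate transfections, and pairs within a group differed beyond counting noise (chi-square per degree of freedom 5.98 to 10.5), so each counted as 1 sample.

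Named members are the 3 markers, members on a list, the 15 with the largest ratio among those with at least 5 CPM, the 10 with the highest CIC::NUTM1 level, the 5 with the largest rise with CIC::DUX4 and the 3 genes on each side of the limit. No member was called lower with CIC::DUX4, so no largest falls are named. 1 gene that this rule names is not reported here. JAG1, MUC2, TNNI2, IGF2, P2RY8, CLDN1, IPCEF1, NUAK2, LINC00461, LINC00466 and MEF2C, and the genes outside the set in the chromosome intervals and the Notch pathway, were named after their values were seen.

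Promoters came from the RefSeq table of GRCh38.p14, using the first window listed for a gene. Alternatives were DESeq2 1.42.0, other scalings and filters, other limits for membership, each library left out, a replicate block and a fit of 2 groups alone. In a simulation of CIC::DUX4 against empty vector (17286 genes tested, 200 changed), edgeR recovered 100% of 4-fold and 95% of 2-fold changes with 2.01% of its calls false, and DESeq2 100% and 87% with 6.03%. The changed genes were drawn only from genes above a limit of mean counts, with the same spread between replicates set for every gene. These rates therefore do not apply to members with few counts. Figures were drawn with matplotlib 3.10.9.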

Additional observations from a re-analysis of the deposited data

How the results depend on the processing

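The number of genes in the set was 393 with a 1.5-fold limit, 61 with a 3-fold limit and 72 with a lowest mean of 5 CPM. It was 195 with TMM library sizes and 191 with DESeq2 size factors, and all 178 genes were among both. Leaving out 1 library gave 157 to 267 genes, the most without CIC::NUTM1 replicate 2. The count of members higher with CIC::DUX4 than with empty vector was 48 to 66 when 1 library was left out, 48 of 126 tested members when only the 2 groups were fitted and 25 of 71 tested members with at least 10 counts in every library, a filter that removes genes silent with empty vector. No member was called lower in any of these fits. Listed genes outside the set that were higher with CIC::NUTM1 than CIC::DUX4 numbered 18 to 36 when 1 library was left out, with 18 without CIC::NUTM1 replicate 1. Those lower numbered 2 to 5 (2 without CIC::DUX4 replicate 1 and without CIC::NUTM1 replicate 3), and 1 with at least 10 counts in every library. Homeobox genes were 11 to 19 higher and 0 to 1 lower. The causes were not tested.

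With the replicate number as a block, 61 members were higher with CIC::DUX4 and 0 lower, and 59 of the 64 called without it were among them. The block left 33 listed genes higher and 4 lower, and 19 homeobox genes higher. Libraries of the same number did not deviate together (correlations -0.031 to 0.075), and the labels' protocols give separate days for replicates without saying that a number marks one day across groups, so the number was not treated as a pairing. Over 32 named members, 483 of 497 values kept their call, 6 lost it and 8 gained it. No difference changed sign where either of the 2 fits called it. Uncalled differences near 0 did change sign in places, such as that of DLL1 (-0.13 to 0.11 with 1 library left out). Genes under about 2 CPM rest on few counts, and for them a small difference between CIC::DUX4 and empty vector was not detectable at this depth.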

Other observations

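The Notch pathway around DLL1 and JAG1 was looked at after their values were seen. The other ligands DLL3, DLL4 and JAG2 were not called between CIC::NUTM1 and CIC::DUX4, with log2 differences of -0.06 ± 0.14, -0.18 ± 0.35 and 0.04 ± 0.07. The receptor NOTCH1 was higher, with means of 67.4 ± 7.52 CPM with CIC::NUTM1, 50.7 ± 4.31 CPM with CIC::DUX4 and 48.3 ± 3.25 CPM with empty vector (SD, n = 3; log2 difference between the fusions 0.45 ± 0.09, edgeR adjusted p = 0.00258), while NOTCH2 and NOTCH3 were not called. Of the genes known to follow Notch activity, HES1, HES5, HEY1, HEY2, HEYL and NRARP, none was called, and their log2 differences ran from -0.27 for HES5 to 0.30 for HEY2.

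Relatives of SPP1 and TAC1 were mostly too low to test. IBSP, of the same gene family as SPP1, had 0 counts over the empty vector libraries, 4 over the CIC::DUX4 libraries and 36 over the CIC::NUTM1 libraries. DMP1, of the same family, had 0, 50 and 7 counts in that order, DSPP had 1, 9 and 1, and MEPE had 0, 2 and 1. TACR1, the receptor of substance P, had 0, 12 and 35 counts.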
